A study of Mus musculus with 39 samples.

Results

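The genes described are the adult alpha globins Hba-a1 and Hba-a2, the adult beta globins Hbb-bs and Hbb-bt, and Alas2, the enzyme that starts haem synthesis in red cell precursors. They were taken by name, 5 of the 34600 entries in each of 3 tables of gut RNA. Levels were compared between 6 BALB/cJ mice and 7 C57BL/6J mice in the colon, the ileum and a sample labelled duodenum/jejunum. Every mouse gave 1 library per tissue, 39 in all. No treatment, sex or age is given in the labels. Both strains are inbred, so the mice of a strain share 1 genotype, and C57BL/6J is the strain of the mouse reference genome.

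Haemoglobin is a tetramer of alpha and beta globin chains, each holding a haem. Red cell precursors in the marrow and spleen transcribe the globin genes at very high levels, eject their nucleus, and carry a store of globin messenger RNA into the blood as reticulocytes. Whole gut tissue holds vessels with such blood, while the haem enzymes other than Alas2 are made by nearly all cells. The beta-globin cluster is polymorphic among inbred mice. C57BL/6J carries the single (Hbb-s) haplotype, whose adult genes are Hbb-bs and Hbb-bt, and BALB/cJ carries the diffuse (Hbb-d) haplotype, whose adult genes are named Hbb-b1 and Hbb-b2. Hbb-b1 and Hbb-b2 were not analysed here, so a BALB/cJ value under Hbb-bs or Hbb-bt counts those BALB/cJ transcripts that the quantification assigned to the C57BL/6J genes. How far the haplotype changes these 2 values was not tested.

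On GRCm38 with GENCODE M21, Hba-a1 lies at chr11:32283511-32284465 on the plus strand and Hba-a2 at chr11:32296489-32297298 on the same strand, with 12023 bases between them. Hbb-bs lies at chr7:103826534-103828096 and Hbb-bt at chr7:103812524-103813996, both on the minus strand, with 12537 bases between them. Alas2 spans chrX:150547375-150570638 on the plus strand. All 4 globin genes have 3 exons, and Alas2 has 11. The coding sequences of the alpha pair, 429 bases each, differed at 1 base, C381T counted from the A of the start codon with the base of Hba-a1 first. Those of the beta pair, 444 bases each, differed at 1 base, C417T with the base of Hbb-bs first. Both changes fall on the third base of a codon. The stretches around them are printed because they show how little separates the copies, with the differing base in capitals. They are bases 341 to 401 of the alpha and 377 to 437 of the beta coding sequence of the GENCODE M21 transcripts.
Hba-a1: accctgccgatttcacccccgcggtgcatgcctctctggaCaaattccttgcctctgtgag
Hba-a2: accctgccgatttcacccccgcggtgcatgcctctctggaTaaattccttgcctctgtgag
Hbb-bs: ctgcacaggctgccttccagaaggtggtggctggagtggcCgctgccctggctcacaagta
Hbb-bt: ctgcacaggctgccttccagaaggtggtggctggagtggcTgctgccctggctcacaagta

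The quantifier named by the submitters, kallisto, assigns reads by short words of sequence. Of the 31-base words in Hba-a2 transcripts, 92.6% were also in Hba-a1, and of those in Hba-a1, 75.4% were in Hba-a2. The beta pair shared 59.4% of the words of Hbb-bt and 54.4% of those of Hbb-bs. No word of Alas2 was in any of the globin transcripts, and no word was shared between the alpha and the beta pair. Reads of the shared words are split between near-identical copies by estimate, so the level of 1 copy of a pair is less certain than that of the pair together.

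The promoters are printed as a description of the sequence before each gene. Whether these sequences bear on the levels across libraries was not tested. They are the 120 bases before the transcription start in RefSeq on GRCm38.p6, where all 5 members matched. GENCODE M21 places some of the starts elsewhere in or near these windows. Capitals mark the TATA box ATATAA, the CCAAT box, the motif CACCC and the GATA factor core GATAA wherever they occurred on either strand.
Hba-a2, chr11:32296372-32296491, plus strand: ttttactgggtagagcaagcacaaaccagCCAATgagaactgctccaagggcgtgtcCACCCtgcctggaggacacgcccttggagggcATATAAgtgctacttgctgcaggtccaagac
Hbb-bs, chr7:103827929-103828048, minus strand: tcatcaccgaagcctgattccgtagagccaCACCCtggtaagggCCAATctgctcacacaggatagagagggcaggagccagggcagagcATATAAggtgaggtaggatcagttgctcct
Hbb-bt, chr7:103813924-103814043, minus strand: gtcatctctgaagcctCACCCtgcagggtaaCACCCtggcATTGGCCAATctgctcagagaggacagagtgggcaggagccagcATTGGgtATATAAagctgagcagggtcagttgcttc
Alas2, chrX:150547297-150547416, plus strand: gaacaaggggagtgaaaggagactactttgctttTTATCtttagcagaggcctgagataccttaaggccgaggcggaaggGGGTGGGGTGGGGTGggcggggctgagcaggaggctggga
The window of Hba-a1 is that of Hba-a2 moved by 3 bases. Over the RefSeq promoter stretches of both genes, which are longer than the printed windows, 297 bases could be compared at that offset, with 0 differences. The ATATAA motif, the CCAAT box and the CACCC motif were present in all 4 globin windows. Alas2 held CACCC and GATAA, both read on the opposite strand, and neither ATATAA nor CCAAT. Across the 32851 windows of 120 bases searched on both strands, ATATAA was in 4.47%, CCAAT in 21.3%, CACCC in 31.7% and GATAA in 10.5%. In Hbb-bt, 1 match of CCAAT on the opposite strand, printed as ATTGG, directly precedes the match on the plus strand. A match or its lack describes the letters in these windows only.

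Values are in TPM, the share of a library that a transcript holds, corrected for its length and scaled to a fixed total, so levels can be compared between genes. Each library summed to between 979558 and 996230 TPM, and 14557 to 16186 entries reached 1 TPM. TPM keeps no read depth, so precision rests on the spread between mice. In C57BL/6J mouse 2 the 2 small intestine libraries went against their labels. Fabp6, an ileal bile acid binding protein, was at 22.1 TPM in its ileum library, where Tmprss15, the enteropeptidase of the duodenum, was at 51.2 TPM. Its duodenum/jejunum library had 6111 TPM of Fabp6 and 39.2 TPM of Tmprss15. Results that rest on these libraries are given with and without them. Markers of pancreatic acinar cells summed to 39.1 to 922 TPM in BALB/cJ colons, highest in mice 3 and 5, and to 31.1 to 76.4 TPM in C57BL/6J colons. Calls of a named gene that did not hold without these 2 mice are given beside it.

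All 4 globin genes were higher in BALB/cJ mice than in C57BL/6J mice in the colon and in the ileum, by 2.05-fold to 3.65-fold, and Alas2 was not called in any tissue. Hbb-bs was the 1 member called higher in the duodenum/jejunum. A gene was called at a Benjamini-Hochberg adjusted p under 0.05 in limma on log2(TPM + 1), over all genes tested in a tissue. In the colon 4 of 5 members were called higher, against 14.5% of the 15769 genes tested. In the ileum 4 of 5 were called higher, against 17.2% of 15537, and in the duodenum/jejunum 1 of 5, against 4.70% of 15306. On the log2 scale, the median difference over the 5 members was 1.33 for the colon, 1.54 for the ileum and 0.33 for the duodenum/jejunum. The median over all genes tested was 0.02, 0.17 and 0.01 in the same order. In bulk tissue, fewer cells of a type and less RNA per cell cannot be told apart.

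**Figure D1:**
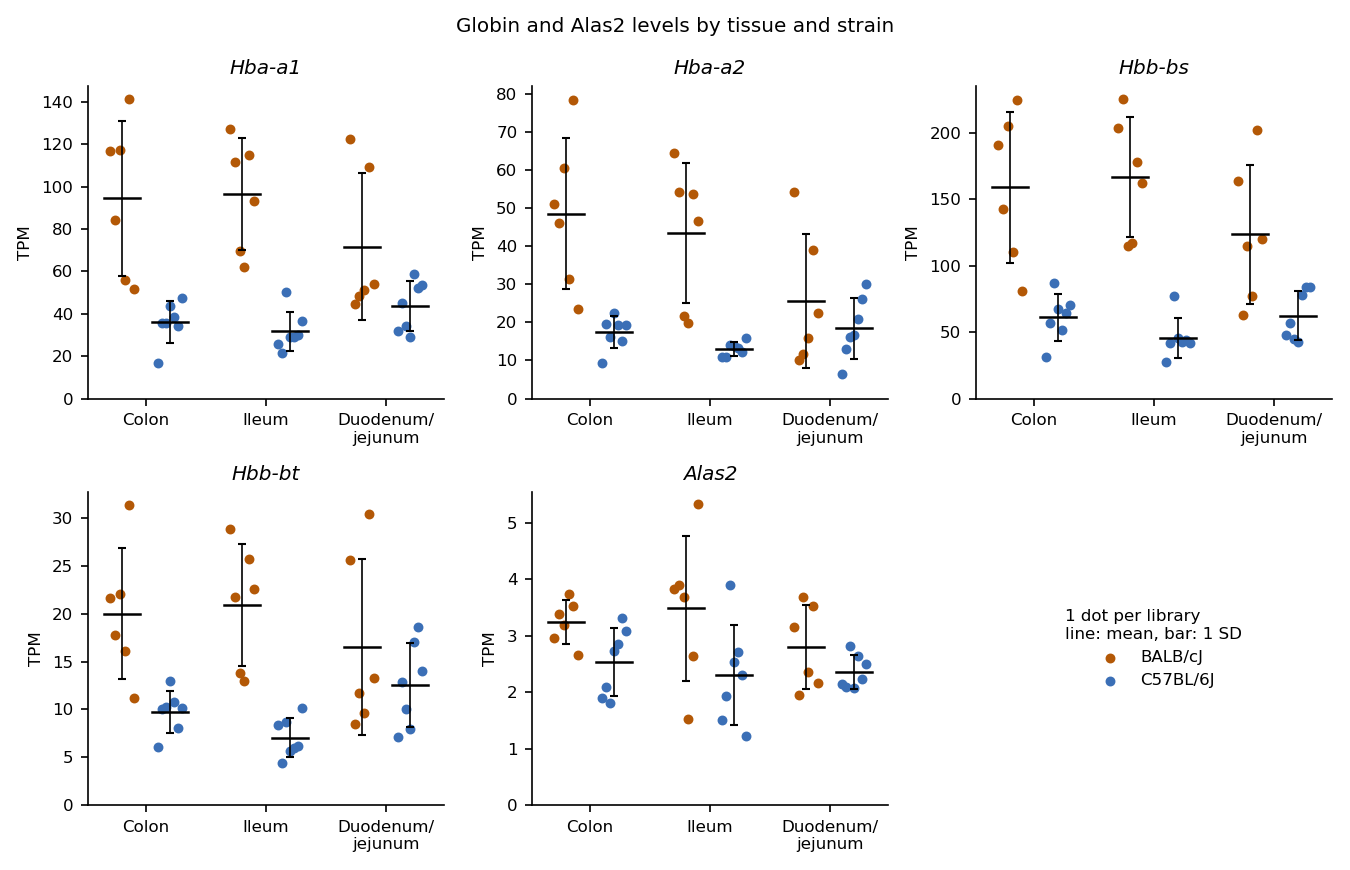
Levels of the 5 genes in TPM (y axis, linear, from 0) in each tissue, with BALB/cJ in orange (n = 6) on the left and C57BL/6J in blue (n = 7) on the right of each pair; 1 dot is 1 library, the line is the mean and the bar 1 SD. The strains are separate for all 4 globins in the ileum, and overlap for all 5 genes in the duodenum/jejunum.

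Hba-a1, which encodes an adult alpha chain, ran from 51.6 to 141 TPM with a median of 100.5 in BALB/cJ colons, against 16.7 to 47.5 with a median of 35.8 in C57BL/6J colons. The strains did not overlap. Ileum libraries ran from 62.0 to 127 TPM with a median of 102 in BALB/cJ, against 21.6 to 50.0 with a median of 29.04 in C57BL/6J, again without overlap. Duodenum/jejunum libraries ran from 44.8 to 122 TPM with a median of 52.6 in BALB/cJ, against 28.9 to 58.6 with a median of 45.1 in C57BL/6J. There, BALB/cJ mice 1 and 5 were far above all other libraries, and the remaining 4 fell among those of C57BL/6J. The differences were 1.33 ± 0.27 SE in the colon and 1.57 ± 0.20 SE in the ileum on the log2 scale, with limma adjusted p-values of 0.00205 and 8.28e-05. The difference of 0.63 in the duodenum/jejunum had an adjusted p of 0.164.

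Hba-a2 encodes the same alpha chain from the second copy. Its level was 48.4 ± 19.8 TPM in BALB/cJ colons and 17.3 ± 4.20 in C57BL/6J colons (SD, n = 6 and 7), with ranges of 23.5 to 78.4 and 9.43 to 22.3 that did not overlap. BALB/cJ ilea held 43.4 ± 18.4 TPM and C57BL/6J ilea 12.99 ± 1.80, also without overlap. The C57BL/6J ileum was the tightest group of this gene, within 10.9 to 15.996 TPM. BALB/cJ duodenum/jejunum libraries ran from 10.2 to 54.1 TPM and C57BL/6J ones from 6.51 to 30.05, with the medians at 19.2 and 16.7. The adjusted p from limma was 0.00107 in the colon and 0.000779 in the ileum, for log2 differences of 1.37 ± 0.25 and 1.54 ± 0.25 SE. For the difference of 0.33 in the duodenum/jejunum it was 0.719.

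Hbb-bs, an adult beta chain gene of the C57BL/6J haplotype, had the highest TPM of the 5 genes in all 6 groups of libraries. In the colon it ran from 80.9 to 224 TPM with a median of 166.5 in BALB/cJ, against 30.9 to 87.2 with a median of 64.5 in C57BL/6J. A single library of each strain crossed the other's range, BALB/cJ mouse 6 and C57BL/6J mouse 3. Its ileum values ran from 115 to 225 TPM with a median of 170 in BALB/cJ, against 27.6 to 77.2 with a median of 42.8 in C57BL/6J, without overlap. Its duodenum/jejunum values ran from 62.8 to 202 TPM with a median of 117 in BALB/cJ, against 42.7 to 83.9 with a median of 56.6 in C57BL/6J, and 4 of 6 BALB/cJ libraries were above all of C57BL/6J. The log2 differences were 1.33 ± 0.26 SE (limma, adjusted p 0.00152) for the colon, 1.86 ± 0.21 (adjusted p 2.44e-05) for the ileum and 0.92 ± 0.26 (adjusted p 0.0386) for the duodenum/jejunum. The last call was lost in 8 of the 13 fits that left out 1 mouse, with adjusted p-values up to 0.0933, and it was 0.0636 without C57BL/6J mouse 2. It was also lost without BALB/cJ mice 3 and 5 (adjusted p 0.159), without the filter on low values, with rescaled libraries and with the mean of endothelial markers as a covariate.

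Hbb-bt is the second adult beta gene of the same haplotype, and its level was a fraction of that of Hbb-bs. It was at 20.02 ± 6.84 TPM in BALB/cJ colons and 9.75 ± 2.18 in C57BL/6J colons, where 5 of 6 BALB/cJ libraries exceeded all of C57BL/6J. BALB/cJ ilea held 20.95 ± 6.39 TPM and C57BL/6J ilea 7.06 ± 2.06, with lowest and highest values of 12.98 and 28.9 against 4.35 and 10.2, so the strains did not overlap. The BALB/cJ duodenum/jejunum held 16.5 ± 9.22 TPM and that of C57BL/6J 12.5 ± 4.39, with broad overlap. The limma adjusted p-values were 0.0033, 0.000337 and 0.655 for log2 differences of 0.93 (colon), 1.43 (ileum) and 0.29 (duodenum/jejunum).

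Alas2 showed no such separation. It was at 3.24 ± 0.39 TPM in BALB/cJ colons and 2.54 ± 0.60 in C57BL/6J colons, 1.28-fold higher, with ranges of 2.66 to 3.74 and 1.81 to 3.32. BALB/cJ ilea held 3.49 ± 1.29 TPM and C57BL/6J ilea 2.30 ± 0.89. The duodenum/jejunum held 2.81 ± 0.75 TPM in BALB/cJ mice and 2.36 ± 0.30 in C57BL/6J mice. The log2 differences were 0.27, 0.43 and 0.16 with limma adjusted p-values of 0.104, 0.17 and 0.547. All 3 are positive, and the strains overlapped in each tissue.

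**Figure D2:**
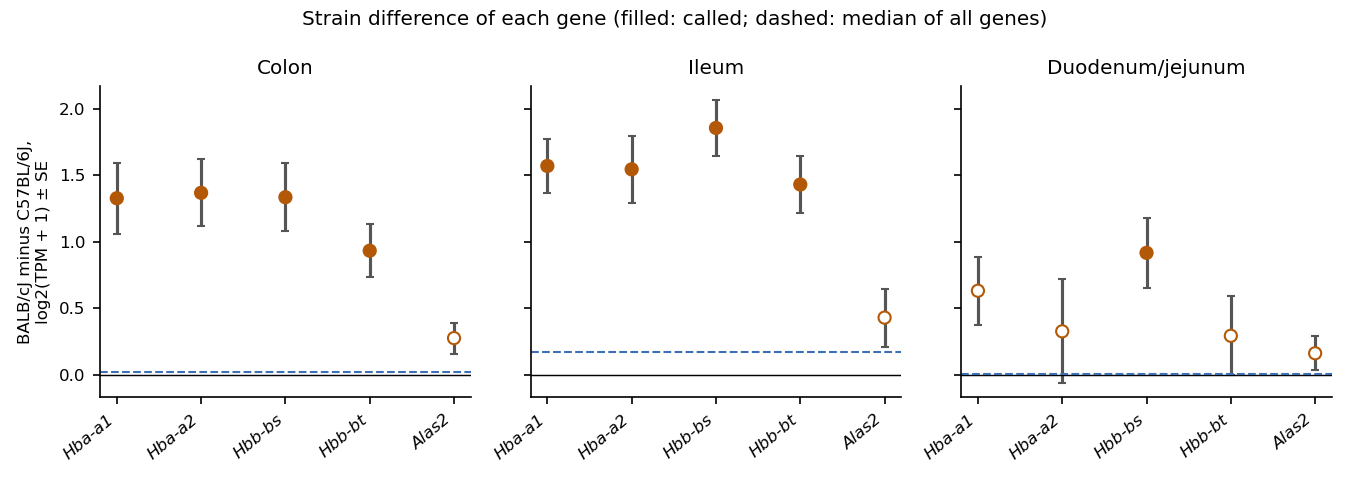
Strain difference of each gene on the log2(TPM + 1) scale (y axis, BALB/cJ minus C57BL/6J, bars 1 SE) in 3 panels, 1 per tissue. Filled circles passed an adjusted p of 0.05 in limma, and the dashed line is the median of all genes tested, 0.17 in the ileum and near 0 elsewhere; the 4 globins stand above it in each tissue, with Alas2 the nearest to it.

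Of the 5 members, 2 had no overlap between the strains in the colon, against 6.49% of all genes tested there without overlap and higher in BALB/cJ. In the ileum 4 had none, against 8.37%. None was free of overlap in the duodenum/jejunum, against 2.89%. The ileal differences include the shift of 0.17 that the median gene showed. With libraries rescaled by median-ratio (RLE) size factors, which remove that shift, the 4 globins were still called in the ileum, with differences of 1.38 for Hba-a1, 1.36 for Hba-a2, 1.67 for Hbb-bs and 1.26 for Hbb-bt. Without C57BL/6J mouse 2 the ileal differences were 1.49 for Hba-a1, 1.51 for Hba-a2, 1.84 for Hbb-bs and 1.34 for Hbb-bt, and all 4 were called. The 4 globins together made up 0.0335% of TPM in the median BALB/cJ colon library and 0.0122% in the median C57BL/6J one. The same share was 0.0348% against 0.00925% in the ileum and 0.0198% against 0.0127% in the duodenum/jejunum. These shares ran from 0.0126% to 0.0475% over all BALB/cJ libraries and from 0.0063% to 0.0181% over all C57BL/6J libraries.

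Tissues of a strain were compared next. In BALB/cJ the order by mean TPM was ileum, colon, duodenum/jejunum for Hba-a1, Hbb-bs, Hbb-bt and Alas2, and colon, ileum, duodenum/jejunum for Hba-a2. In C57BL/6J it was duodenum/jejunum, colon, ileum for all 4 globins, and colon, duodenum/jejunum, ileum for Alas2. In the fit of all 39 libraries no pair of neighbours in these orders was called, with the exception of Hba-a2 between ileum and duodenum/jejunum of BALB/cJ. Between colon and ileum 46.1% of all genes were called in BALB/cJ and 61.7% in C57BL/6J, between colon and duodenum/jejunum 63.5% and 64.6%, and between ileum and duodenum/jejunum 43.1% and 11.3%. In that limma fit Hba-a2 was 1.04 ± 0.34 SE higher on the log2 scale in the colon of BALB/cJ than in the duodenum/jejunum (adjusted p 0.00807), and 0.86 ± 0.34 SE higher in the ileum (adjusted p 0.0407). That is 1 of 5 members in each contrast, against 49.0% and 35.5% of 17126 genes called higher. The median gene moved by 0.29 and 0.20 in these contrasts, and with RLE size factors both calls were lost, at 0.69 (adjusted p 0.099) and 0.63 (adjusted p 0.177). Leaving out BALB/cJ mouse 3 took the colon contrast to 0.79 with an adjusted p of 0.0567, and leaving out BALB/cJ mouse 2 took the ileum contrast to 0.57 with an adjusted p of 0.232. That ileum call was also lost without BALB/cJ mouse 3 or 6 and without C57BL/6J mouse 3, 4 or 5, at adjusted p-values of 0.0502 to 0.0778.

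The 3 libraries of a mouse share an animal, and a fit with the mouse as a replicate block uses that. Under it, Hba-a1 of BALB/cJ was called higher in the ileum than in the duodenum/jejunum, by 0.50 with a limma adjusted p of 0.0466, where the fit without the block gave 0.133. That makes 2 of 5 members, against 37.8% of all genes called higher under the block. Hbb-bt of C57BL/6J was called lower in the ileum than in the duodenum/jejunum, by -0.72 with an adjusted p of 0.0226, against 0.0538 without the block, 1 of 5 members where 5.91% of genes were called lower. Without mouse 2, whose 2 small intestine libraries enter this contrast, the difference for Hbb-bt was -0.61 with an adjusted p of 0.0502 under the block.

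The strain difference in the ileum minus that in the duodenum/jejunum was 0.94 ± 0.37 SE on the log2 scale for Hba-a1, 1.22 ± 0.47 for Hba-a2, 0.94 ± 0.37 for Hbb-bs and 1.14 ± 0.36 for Hbb-bt. None of these passed in the 39-library limma fit, where the adjusted p was 0.114 for Hba-a1, 0.106 for Hba-a2, 0.115 for Hbb-bs and 0.0615 for Hbb-bt, and all 4 were under 0.05 unadjusted. In that fit 3.92% of genes were called. With the mouse as a replicate block, 3 of 5 members passed, against 5.33% of genes called higher. The adjusted p under the block was 0.0456 for Hba-a1, 0.0464 for Hba-a2, 0.0352 for Hbb-bt and 0.0649 for Hbb-bs. Without C57BL/6J mouse 2 the blocked values were 0.84 for Hba-a1 (adjusted p 0.0691), 1.24 for Hba-a2 (0.0483) and 1.03 for Hbb-bt (0.0475), so Hba-a1 was lost. The median gene moved by 0.16 in this contrast, and with RLE size factors the differences were 0.76, 1.05, 0.76 and 0.97 with adjusted p-values of 0.206 to 0.313. Between colon and duodenum/jejunum the difference was 1.04 for Hba-a2 with an adjusted p of 0.223, and 0.0883 under the block. Between colon and ileum the 5 members ranged from -0.52 to -0.15, all with an adjusted p of 0.452 or more, and 0 were under 0.05 unadjusted. In limma 0 of 5 members were called in either of these contrasts, with or without the block, where 5.59% and 4.08% of genes were called without it. In the contrast with the duodenum/jejunum 1 of 5 was under 0.05 unadjusted.

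A ratio of 2 genes within a library is free of the library's scaling. Ratios were compared between strains with exact 2-sided permutation tests over all splits of 13 libraries, whose smallest possible p is 0.000583, adjusted over the 12 ratios run. No strain difference in the ratio of Hba-a2 to Hba-a1 passed. The median ratio was 0.531 in BALB/cJ colons and 0.505 in C57BL/6J colons, 0.476 and 0.435 in the ileum, and 0.335 and 0.472 in the duodenum/jejunum. The strain difference in the log2 ratio was 0.07, 0.01 and -0.30 in the 3 tissues, with exact permutation p-values of 0.498, 0.964 and 0.289 (adjusted 0.597, 0.964 and 0.385).

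The ratio of Hbb-bt to Hbb-bs was lower in BALB/cJ in the duodenum/jejunum, and did not pass in the colon or ileum. In the duodenum/jejunum it ran from 0.102 to 0.157 with a median of 0.130 in BALB/cJ, against 0.149 to 0.228 with a median of 0.218 in C57BL/6J. BALB/cJ mice 1 and 5 and C57BL/6J mouse 1 lay in the overlap. The log2 difference was -0.62, with an exact permutation p of 0.00291, adjusted 0.035, and the call was lost in 5 of the 13 tests that left out 1 mouse. One of these 5 left out C57BL/6J mouse 2, whose small intestine libraries go against their labels and whose ratio was the highest, at 0.228. In the colon the ratio was 0.108 to 0.147 in BALB/cJ and 0.118 to 0.210 in C57BL/6J, a log2 difference of -0.35 (exact permutation p 0.0472, adjusted 0.133). In the ileum it was 0.0966 to 0.145 in BALB/cJ and 0.105 to 0.303 in C57BL/6J, a log2 difference of -0.32 (exact permutation p 0.283, adjusted 0.385). BALB/cJ libraries kept to a narrow band in all 3 tissues, with medians of 0.131, 0.130 and 0.130. Since these values are assignments to C57BL/6J gene copies, the ratio in BALB/cJ is not a ratio of 2 known BALB/cJ transcripts.

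The beta to alpha ratio, the summed TPM of Hbb-bs and Hbb-bt over that of Hba-a1 and Hba-a2, was above 1 in all but 2 libraries, the C57BL/6J ileum libraries of mice 1 and 7. Its median was 1.25 in BALB/cJ colons and 1.21 in C57BL/6J colons, 1.37 and 1.19 in the ileum, and 1.43 and 1.198 in the duodenum/jejunum. The exact permutation p was 0.597, 0.0554 and 0.0688 in the 3 tissues, adjusted 0.651, 0.133 and 0.138, so no difference passed. The ratio of Alas2 to the alpha-globin sum was lower in BALB/cJ in the colon, at a median of 0.022 against 0.0463 in C57BL/6J, and in the ileum, at 0.0218 against 0.0593. These log2 differences were -0.995 and -1.02, with exact permutation p-values of 0.00583 and 0.0117 (adjusted 0.035 and 0.0466). For the duodenum/jejunum it was -0.34 with an exact permutation p of 0.262 (adjusted 0.385). The adjusted p rose to at most 0.0866 in the colon and 0.106 in the ileum when single mice were left out, and without C57BL/6J mouse 2 it was 0.0649 in both. In the colon and ileum the mean alpha-globin sum was itself 2.68-fold and 3.12-fold higher in BALB/cJ, and mean Alas2 1.28-fold and 1.51-fold. The lower ratio therefore restates in large part the globin difference and is not separate from it.

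**Figure D3:**
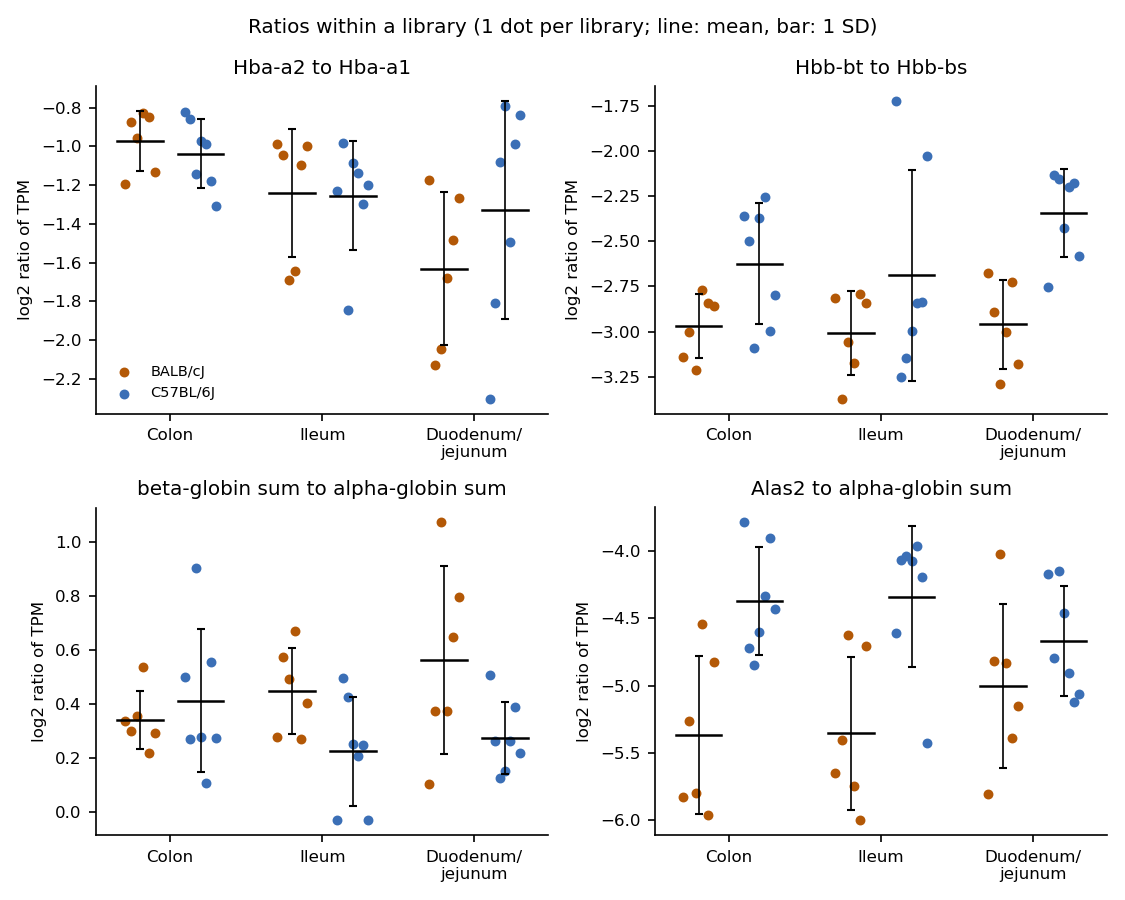
Log2 ratios of TPM within a library (y axis) for 4 ratios by tissue, BALB/cJ in orange on the left and C57BL/6J in blue on the right of each pair; 1 dot is 1 library, the line is the mean and the bar 1 SD. The Hba-a2 to Hba-a1 ratio overlaps in each tissue, and Hbb-bt to Hbb-bs is lower in BALB/cJ in the duodenum/jejunum (-0.62). Alas2 to alpha-globin is lower in BALB/cJ in the colon and ileum (-0.995 and -1.02), where alpha-globin itself is higher.

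Within groups the globins rose and fell together from library to library. Deviations of log2(TPM + 1) from the mean of each strain and tissue were taken over all 39 libraries, and each globin was set against all other genes tested. Among 17125 genes, the 3 with the highest Pearson r to a globin were in each case the other 3 globins. The r was 0.89 between Hba-a1 and Hbb-bt, 0.88 between Hba-a1 and Hbb-bs, 0.87 between Hba-a2 and Hbb-bt, and 0.85 between Hba-a1 and Hba-a2. The lowest was 0.77, between Hba-a2 and Hbb-bs. Reads shared within a pair tie its 2 copies, but alpha and beta transcripts share no word. All these values come from the same libraries, 3 per mouse, and are given as a description.

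The next genes after the globins were Ighv5-17 and Igkv1-117 for Hba-a1 (r 0.66 and 0.65), Ighv1-11 and Igkv4-70 for Hba-a2 (0.66 and 0.61), Id2 and Gprc5b for Hbb-bs (0.65 and 0.64), and Fgl2 and Adgre4 for Hbb-bt (0.67 and 0.65). Alas2 followed the globins loosely, with r from 0.30 for Hbb-bt to 0.46 for Hbb-bs. Its 5 closest genes were Zfp128 (0.62), Tpp1 (0.61), Golga1 (0.54), 6430573F11Rik (0.53) and Snx16 (0.53). Hbb-bs was at rank 42 among the genes closest to Alas2, and Hba-a1 at rank 136. A few single markers picked from the lists of other cell types had a lower r with Hba-a1 than the globins and immunoglobulin segments above. The other markers of these lists are not given here. The r was 0.25, 0.10 and -0.09 for the endothelial genes Pecam1, Cdh5 and Vwf. It was 0.34 for the B cell gene Cd79a, 0.38 for the adipocyte gene Adipoq and 0.19 for the platelet gene Pf4. The red cell gene Epb42 was further than all of these, at -0.22.

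**Figure D4:**
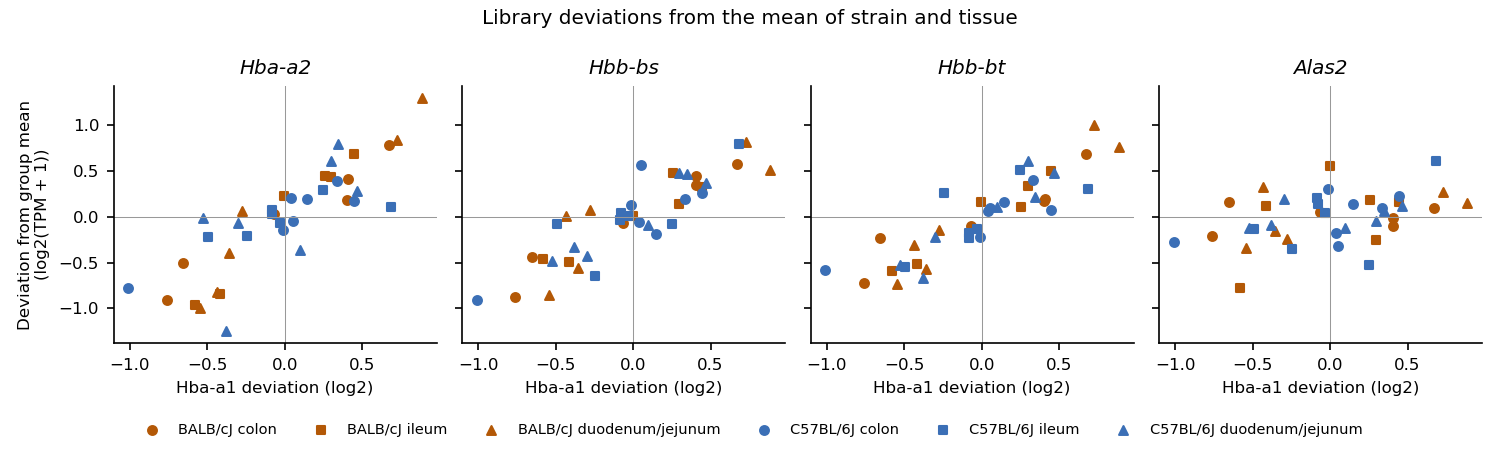
Deviation of each of 39 libraries from the mean of its strain and tissue on the log2(TPM + 1) scale, Hba-a1 on the x axis and the named gene on the y axis; colour is strain (BALB/cJ orange, C57BL/6J blue) and shape is tissue (circle colon, square ileum, triangle duodenum/jejunum). The other 3 globins follow Hba-a1 along a diagonal (r 0.85 to 0.89), while Alas2 spreads around 0 (r 0.40).

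The level in 1 tissue of a mouse was also set against that in another, and none of 12 relations passed the correction. Over the 6 BALB/cJ mice, Hba-a1 in the ileum and the duodenum/jejunum gave a Pearson r of 0.65 and a Spearman rho of 0.60 (exact permutation p 0.146 and 0.242). These relations cover Hba-a1 and Alas2 in each strain and pair of tissues, and the lowest p was that of Alas2 between the colon and ileum of BALB/cJ, with r -0.88 and rho -0.83 (exact permutation p 0.0167 and 0.0583, adjusted 0.2 and 0.7). Without the 2 mice farthest from the median of the colon values that r was -0.65 over 4 mice. BALB/cJ mice 1 and 5 were among the 3 highest of their strain for Hba-a1 in all 3 tissues.

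The embryonic globins were at or near 0. Hbb-bh0, Hbb-bh3, Hbb-y and Hba-x were listed at 0 in all 39 libraries. Hbb-bh1 did not exceed 0.283 TPM and Hbb-bh2 not 0.338 TPM. The theta globins Hbq1a and Hbq1b reached at most 0.175 TPM and 0.171 TPM, and myoglobin, Mb, the oxygen store of muscle, 0.152 TPM. Hba-ps4, an alpha-globin pseudogene on chromosome 17 that shares 18 of its 417 words of 31 bases with Hba-a1, was at 1.85 ± 0.46 TPM in the BALB/cJ duodenum/jejunum, against 0.887 ± 0.309 in C57BL/6J. It passed the filter there through the BALB/cJ libraries, of which 6 reached 1 TPM, against 2 of C57BL/6J, so these values are given without a test.

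Of the globins found outside red cells, Cygb, a globin of fibroblasts and related cells, was higher in BALB/cJ in the colon, at 20.4 ± 3.66 TPM against 12.9 ± 2.16 in C57BL/6J (limma, adjusted p 0.00247). It was also higher in the ileum, at 16.8 ± 3.87 TPM against 7.17 ± 2.38 (adjusted p 0.0038). Ngb, the neuronal globin, was lower in BALB/cJ colons, at 1.34 ± 0.22 TPM against 2.16 ± 0.52 in C57BL/6J (adjusted p 0.0139). The Ngb call was lost without BALB/cJ mice 3 and 5 and with the mean of the endothelial markers as a covariate. The Cygb calls held without C57BL/6J mouse 2 and with RLE size factors, and both were lost with that covariate.

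The rest of the haem pathway did not follow the globins as a group, but Alad did rise. Alad, which joins 2 molecules of aminolevulinic acid in the step after Alas1 and Alas2, was at 102 ± 5.75 TPM in BALB/cJ colons and 36.8 ± 1.87 in C57BL/6J colons. BALB/cJ ilea held 135 ± 10.4 TPM and C57BL/6J ilea 38.3 ± 5.44, and the duodenum/jejunum held 137 ± 14.3 TPM in BALB/cJ mice and 43.3 ± 6.69 in C57BL/6J mice. The strains did not overlap in any of the 3 tissues, the folds were 2.77, 3.51 and 3.16, and the limma adjusted p-values were 9.69e-12, 2.13e-09 and 2.79e-08. Unlike the globins, Alad was as far apart in the duodenum/jejunum as in the colon, though this contrast between genes was not tested.

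Abcb10, a mitochondrial transporter that supports haem synthesis, was lower in BALB/cJ in all 3 tissues. It was at 10.2 ± 0.40 TPM against 12.7 ± 0.75 in C57BL/6J colons, 13.8 ± 1.67 against 19.4 ± 2.40 in the ileum, and 14.9 ± 1.10 against 20.01 ± 2.51 in the duodenum/jejunum (limma, adjusted p 0.00108, 0.00605 and 0.0156). The call in the duodenum/jejunum was lost without BALB/cJ mice 3 and 5, and that in the ileum with the endothelial covariate. Of 11 haem synthesis genes tested, 1 was higher and 2 lower in the BALB/cJ colon, 6 higher and 1 lower in the ileum, and 1 higher and 1 lower in the duodenum/jejunum. Of all genes tested, 14.5%, 17.2% and 4.70% were called higher in these tissues and 10.8%, 3.17% and 4.80% lower. The list medians were 0.11, 0.27 and 0.07 on the log2 scale, against 0.02, 0.17 and 0.01 over all genes. In the ileum Urod, the fifth enzyme, was at 45.9 ± 3.23 TPM in BALB/cJ mice and 31.6 ± 3.08 in C57BL/6J mice (adjusted p 0.000249), and Fech, which inserts the iron, at 21.02 ± 0.66 and 17.2 ± 0.68 (adjusted p 0.00606). With RLE size factors the ileum held 2 genes higher, Alad and Urod, and 1 lower, Abcb10. Of all 15528 genes tested in that fit, 937 were higher and 886 lower. Without BALB/cJ mice 3 and 5 the ileum held 4 higher and 1 lower, where 1510 of 15245 genes were higher and 302 lower. In the colon Ppox, which makes protoporphyrin, was lower in BALB/cJ, at 14.6 ± 1.90 TPM against 18.6 ± 2.64 (adjusted p 0.0291), a call lost without BALB/cJ mice 3 and 5, with the endothelial covariate and in 6 of 13 fits without 1 mouse. Alas1, the housekeeping form of the first enzyme, stood at 213 ± 34.4 TPM in BALB/cJ colons and 204 ± 25.9 in C57BL/6J colons, far above Alas2, and was not called in any tissue with all mice. In the ileum, with an adjusted p of 0.132 over all mice, it was called higher without BALB/cJ mouse 2, without C57BL/6J mouse 2 and with the endothelial covariate.

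**Figure D5:**
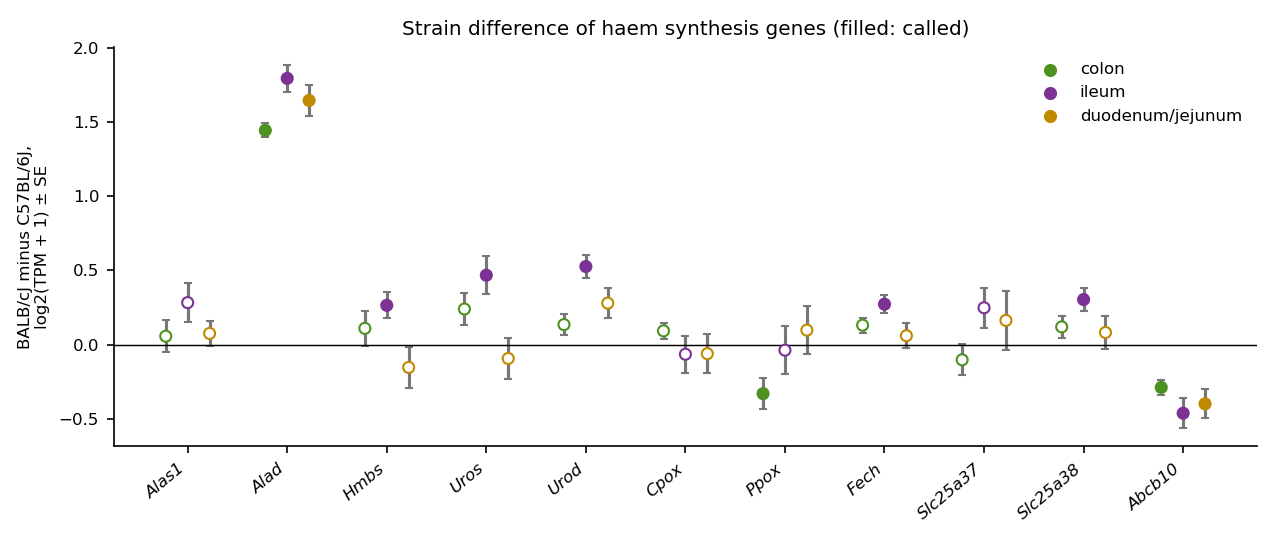
Strain difference on the log2(TPM + 1) scale (y axis, BALB/cJ minus C57BL/6J, bars 1 SE) of 11 haem synthesis genes in the colon (green), ileum (purple) and duodenum/jejunum (yellow); filled circles passed an adjusted p of 0.05 in limma. Alad stands apart at 1.44, 1.79 and 1.64, and Abcb10 is below 0 in the 3 tissues.

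Slc4a1, Klf1 and Gata1, which nucleated red cell precursors transcribe strongly, were low, and were picked after their values were seen. Slc4a1, the band 3 anion exchanger, had a median of 0.130 TPM in BALB/cJ colons and 0.023 in C57BL/6J colons, and a highest value of 0.673 TPM in any library. The regulators Klf1 and Gata1 had means of at most 0.605 and 0.112 TPM in any group. All 3 genes failed the filter of 1 TPM in 6 libraries. Hba-a1 averaged 60.35 TPM over the same 39 libraries. Other genes of the red cell protein and regulator lists were not low, such as Epb41 at 67.5 ± 4.29 TPM and Tfrc at 98.3 ± 3.30 in BALB/cJ colons.

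Of the red cell protein list, the genes that passed the filter were 12 of the 21 analysed for the colon, 11 for the ileum and 9 for the duodenum/jejunum. In the colon 3 were higher in BALB/cJ and 1 lower, and in the ileum 1 was higher and 1 lower. Both ileal genes passed the filter through the strain in which they were higher, so the ileal counts are no test of this list. In the duodenum/jejunum 0 were called in limma, with 1 under 0.05 unadjusted. The share of all genes called higher was 14.5% for the colon and 17.2% for the ileum, and called lower 10.8% and 3.17%. Medians were -0.09, 0.11 and -0.10 on the log2 scale. Dmtn, dematin of the red cell membrane skeleton, was at 2.68 ± 0.27 TPM in BALB/cJ colons and 1.43 ± 0.29 in C57BL/6J colons (adjusted p 0.00025). Epb42, protein 4.2, was at 1.69 ± 0.41 TPM and 1.10 ± 0.16 there (adjusted p 0.0253), but its deviations ran against those of Hba-a1 with an r of -0.22. Fam46c was also higher, at 10.4 ± 1.68 TPM against 8.14 ± 0.98 in C57BL/6J (adjusted p 0.0377), and Xk, a blood group membrane protein, was lower, at 10.4 ± 0.78 against 11.97 ± 0.79 (adjusted p 0.045). The Epb42 call was lost with the endothelial covariate and without BALB/cJ mouse 4, 5 or 6. Fam46c and Xk were both lost without BALB/cJ mice 3 and 5 and with that covariate, Fam46c also with RLE size factors and without the filter, and they were lost in 9 and 10 of 13 fits without 1 mouse, Xk among them without C57BL/6J mouse 2. Tspo2, an erythroid membrane protein, is the gene counted as lower in the ileum, at 0.233 ± 0.154 TPM in BALB/cJ against 1.52 ± 0.37 in C57BL/6J. It passed the filter through C57BL/6J alone, with 0 BALB/cJ and 6 C57BL/6J libraries at 1 TPM or more, and not without C57BL/6J mouse 2, so no test of it is given. Dmtn is the gene counted as higher in the ileum, at 1.36 ± 0.31 TPM in BALB/cJ mice and 0.840 ± 0.213 in C57BL/6J. It passed the filter through BALB/cJ, with 6 BALB/cJ and 2 C57BL/6J libraries at 1 TPM or more, so no test of it is given. Dmtn left that count with RLE size factors, with the endothelial covariate and with a pseudocount of 0.1. It also left in 10 of 13 fits without 1 mouse, C57BL/6J mouse 2 among them.

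Among 12 erythroid regulators 6 passed the filter in each tissue. Lmo2, an adaptor of the GATA complex that endothelium and B cells also express, was at 9.45 ± 1.25 TPM in BALB/cJ colons and 4.85 ± 1.23 in C57BL/6J colons, without overlap (limma, adjusted p 0.000415). In the ileum Lmo2 was at 10.03 ± 3.32 TPM against 6.25 ± 1.39 (adjusted p 0.0294), and Lyl1 and Ldb1, its partners, were called as well (adjusted p 0.0421 and 0.0459). That was 3 of 6 in the ileum, against 17.2% of all genes called higher, and with RLE size factors 0 of 6, while without C57BL/6J mouse 2 Lmo2 alone was called. With the endothelial covariate 0 of 6 were called, and without BALB/cJ mice 3 and 5 Ldb1 was lost. In the ileum 937 of 15528 genes tested were called higher with RLE size factors and 3032 of 15434 without C57BL/6J mouse 2. With that covariate it was 1093 of 15537. Leaving out 1 mouse ended the ileal call of Lmo2 in 5 of 13 fits and those of Lyl1 and Ldb1 in 11 each. For the duodenum/jejunum 0 of 6 were called in limma, with 1 under 0.05 unadjusted.

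Of the genes that clear haemoglobin and break down haem, 1 was called higher in the colon and 5 in the ileum. Hmox1, the inducible haem oxygenase, was at 7.82 ± 1.61 TPM in BALB/cJ colons and 3.35 ± 0.50 in C57BL/6J colons, without overlap (limma, adjusted p 2.52e-05). It was 1 of 11 tested there, below the 14.5% of all genes called higher, with a list median of 0.13. In the ileum 5 of 11 were higher, against 17.2% of all genes, with a median of 0.40. Blvrb, a biliverdin reductase, was at 40.6 ± 2.81 TPM in BALB/cJ ilea and 22.8 ± 2.66 in C57BL/6J (adjusted p 1.07e-05), Ftl1, the ferritin light chain, at 1420 ± 84.1 and 1041 ± 113 (adjusted p 0.00608), and Hmox2, the constitutive haem oxygenase, at 46.5 ± 4.78 and 36.9 ± 4.56 (adjusted p 0.0265). The other two were Hmox1 and the haem transporter Slc48a1, with adjusted p-values of 0.0449 and 0.0491. Hmox1, Hmox2 and Slc48a1 were lost without BALB/cJ mice 3 and 5 and with the endothelial covariate. Leaving out 1 mouse ended the call in 11 of 13 fits for Hmox1, C57BL/6J mouse 2 among them, in 11 for Slc48a1 and in 6 for Hmox2. With RLE size factors Blvrb stayed the 1 gene higher and Blvra was called lower, where 937 of 15528 genes tested were higher and 886 lower. Of 10 genes tested in the duodenum/jejunum 1 was higher, Blvrb at 37.1 ± 3.21 TPM against 27.8 ± 3.69 in C57BL/6J (adjusted p 0.013), and 1 lower, Blvra at 19 ± 2.71 against 27.3 ± 2.21 (adjusted p 0.00293). Of all genes 4.70% were called higher there and 4.80% lower, and the Blvrb call was lost without BALB/cJ mice 3 and 5.

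The lists of B cell, endothelial and adipocyte markers held genes called higher in BALB/cJ colons and ilea. The platelet list held none there. Of all genes, 14.5% (colon) and 17.2% (ileum) were called higher. Of 8 B cell markers, 8 were higher in BALB/cJ colons, 5 in ilea and 0 in the duodenum/jejunum. Fcrl1 passed the filter in the colon through BALB/cJ, with 6 BALB/cJ and 2 C57BL/6J libraries at 1 TPM or more. Its place in the colon count is therefore no test. With RLE size factors the ileum count was 2, where 937 of 15528 genes tested were called higher. Without BALB/cJ mice 3 and 5 it was 2 (1510 of 15245). It was 1 without the filter (2371 of 27336), 0 with the endothelial covariate (1093 of 15537) and 4 without C57BL/6J mouse 2 (3032 of 15434). The colon count was 8 in each of these fits, Fcrl1 included. Their summed level was 47.1 to 70.5 TPM in BALB/cJ colons and 14.6 to 26.9 in C57BL/6J colons, 101 to 213 and 28.4 to 138 in the ileum, and 32.2 to 51.9 and 26.9 to 63.7 in the duodenum/jejunum. Of 13 endothelial markers, 4 were higher in BALB/cJ colons, 6 higher and 1 lower in ilea, and 0 called in the duodenum/jejunum. Without BALB/cJ mice 3 and 5 the counts higher were 2 and 4, and without C57BL/6J mouse 2 they were 5 and 4. Of all genes tested in the colon, 1572 of 15429 and 2272 of 15652 were called higher in these fits. In the ileum 2 were higher with RLE size factors and 2 without the filter. Their sum was 173 to 231 TPM in BALB/cJ colons and 139 to 194 in C57BL/6J colons, 182 to 433 and 163 to 235 in the ileum, and 138 to 231 and 138 to 257 in the duodenum/jejunum. In limma 2 endothelial and 2 B cell markers were under 0.05 unadjusted in the duodenum/jejunum, and 2 adipocyte markers. No marker of these lists was at 0 in all libraries of a tissue.

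Of 7 adipocyte markers tested, 6 were higher in BALB/cJ colons, 1 in ilea and 0 in the duodenum/jejunum, with a sum of 128 to 324 TPM in BALB/cJ colons and 51.5 to 140 in C57BL/6J colons. The ileum call was lost with RLE size factors, without the filter, with the endothelial covariate and without BALB/cJ mice 3 and 5, and 1 of the colon calls without these mice or without the filter. The sum was 84.9 to 515 and 83.7 to 178 in the ileum, and 135 to 264 and 109 to 218 in the duodenum/jejunum. Platelet markers, 3 tested in each tissue, were not called in the colon or ileum in limma, with 0 under 0.05 unadjusted in either, and Pf4 was lower in the BALB/cJ duodenum/jejunum, at 2.32 ± 0.99 TPM against 5.09 ± 1.51 (limma, adjusted p 0.0172), a call lost without BALB/cJ mice 3 and 5. The platelet sum was 18.9 to 39.8 TPM in BALB/cJ colons and 17.5 to 29.8 in C57BL/6J colons, 28.1 to 35.6 and 18.5 to 33.5 in the ileum, and 12.7 to 19.8 and 15.7 to 27.2 in the duodenum/jejunum. Of 10 neutrophil markers, 2 passed the filter for the colon, 1 for the ileum and 2 for the duodenum/jejunum. Among these Ly6g alone was called, higher in BALB/cJ colons at 125 ± 21.1 TPM against 77.4 ± 15.2 (limma, adjusted p 0.00166). That is 1 of 2 tested there, against 14.5% of all genes called higher. Without the filter Mmp8, Mpo and Retnlg were also called higher in BALB/cJ colons, and Mpo in the duodenum/jejunum. The sum of the neutrophil markers was 100 to 161 TPM in BALB/cJ colons and 57.2 to 106 in C57BL/6J colons, and Ly6g made up most of it. Whether Ly6g followed the number of neutrophils was not tested. With the mean of the endothelial markers as a covariate, Hba-a1 and Hba-a2 were still called in the colon and all 4 globins in the ileum. Hbb-bs and Hbb-bt were lost in the colon (limma, adjusted p 0.0505 and 0.057), where the differences of all 5 members stayed positive. The part of B cells, adipocytes and platelets in the globin differences was not tested. The labels do not state whether blood was flushed from the vessels before the tissue was taken.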

How the data were processed

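Gut RNA of 13 mice was sequenced from 3 tissues. Per the labels' protocols, total RNA from a PureLink kit went into TruSeq libraries with ribosomal depletion. Per the submitters' processing notes, kallisto 0.44.0 and GRCm38 were used; for the transcript annotation nothing is stated in these sources. The deposited values are log2 of TPM + 1, made by the authors, 1 table per tissue. They keep no read depth, so no counting interval can be given. Values were turned back to TPM for means and ratios. Entries named by a number (26 per table, at most 0.24% of TPM) were left out of tests.

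Tests used limma 3.58.1 in R 4.3.3 with a mean-variance trend on log2(TPM + 1), a pseudocount of 1, over genes that reached 1 TPM in 6 or more libraries, and were tested on simulated data. All 5 members passed this filter in each tissue. The design had foreseen this test for TPM. The members and gene lists were chosen with earlier results of these data known. The genes named are the members, the other globins, up to 4 called genes by smallest adjusted p from each list and tissue, and the 5 genes closest to each member. Slc4a1, Klf1, Gata1, Alas1 and the remaining called list members were named after their values were seen.

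The labels' mouse identity ties the 3 libraries of a mouse. Deviations from group means had a median r of 0.17 over 18 pairs of libraries of the same BALB/cJ mouse and 0.14 over 21 pairs in C57BL/6J. Alternatives were the pseudocount, the filter, 2 rescalings, the replicate block, an endothelial covariate, single mice left out, and BALB/cJ mice 3 and 5 left out. The block without C57BL/6J mouse 2 was added after the data were seen. Positions and words come from GENCODE M21 and promoters from RefSeq on GRCm38.p6.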

Additional observations from a re-analysis of the deposited data

Results flagged for a closer look

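In 2 groups of a member, 1 library lay far from the rest of its group by Dixon's criterion, which chance meets in about 1 of 20 groups. All 5 members were searched in each strain and tissue, so a few such groups can arise by chance. Hba-a1 in the C57BL/6J colon had its lowest value, 16.7 TPM, in mouse 1, with the nearest other library at 34.3 TPM. That mouse was also the lowest of its group for Hba-a2, Hbb-bs and Hbb-bt. Hbb-bs in the C57BL/6J ileum had its highest value, 77.2 TPM, in mouse 3, with the nearest at 45.2 TPM. Mouse 3 was also the highest of its group for Hba-a1 and Alas2, but not for Hba-a2 or Hbb-bt.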

How the results depend on the processing

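The strain differences of the 5 members kept their sign under all alternatives run. The number of genes called in the ileum was 3169, against 1823 with RLE size factors, 920 with the mouse number as a replicate block across strains, 1585 with the endothelial covariate, 1812 without BALB/cJ mice 3 and 5, and 1948 to 4041 when single mice were left out, lowest without BALB/cJ mouse 5. With RLE size factors 937 were higher and 886 lower in BALB/cJ, against 2677 and 492. In the colon 3986 genes were called, 2087 with the endothelial covariate and 3255 to 4087 with single mice left out. With that covariate Hbb-bs and Hbb-bt in the colon were 1.12 and 0.87 and not called. Numbers 1 to 6 of the strains are different animals, and their deviations had a median r of -0.03, with 3 of 18 pairs above 0.1. That block changed no call of a member within a tissue.

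Hbb-bs in the duodenum/jejunum was not called without the filter (0.92, adjusted p 0.0798), with RLE size factors (0.91), with the endothelial covariate (0.90) or without BALB/cJ mice 3 and 5 (0.71, adjusted p 0.159), and was 0.75 to 1.09 with single mice left out. It was lost without BALB/cJ mouse 1, 3, 5 or 6 or C57BL/6J mouse 1, 2, 3 or 4. The ratio of Hbb-bt to Hbb-bs there was -0.68 to -0.55, that of Alas2 to alpha-globin -1.16 to -0.88 in the colon and -1.20 to -0.89 in the ileum, with calls lost in 5, 8 and 10 of 13 fits; 12 mice allow fewer splits. The beta to alpha ratio was -0.12 to 0.0105 in the colon and, in the duodenum/jejunum, 0.19 to 0.38, passing (adjusted p 0.0455) without BALB/cJ mouse 1. Hba-a2 to Hba-a1 in the ileum was -0.0868 to 0.10, and -0.0252 with 1 TPM added.

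Signs turned in contrasts that were not called. With RLE size factors Alas2 between colon and duodenum/jejunum was -0.10 in BALB/cJ and -0.18 in C57BL/6J, and between colon and ileum of C57BL/6J Alas2 was -0.0723 and Hba-a1 -0.12. Hba-a2 between colon and duodenum/jejunum of C57BL/6J was 0.0043 with a pseudocount of 0.1. With single mice left out, colon minus ileum in BALB/cJ was -0.24 to 0.0711 for Hba-a1, -0.0685 to 0.41 for Hba-a2, -0.30 to 0.0658 for Hbb-bs, -0.21 to 0.11 for Hbb-bt and -0.22 to 0.12 for Alas2, and for Alas2 of C57BL/6J -0.00069 to 0.28. Colon minus duodenum/jejunum in C57BL/6J was -0.10 to 0.12 for Hba-a2 and -0.20 to 0.0637 for Hbb-bs, and ileum minus duodenum/jejunum -0.13 to 0.0354 for Alas2. The strain difference of Hba-a2, colon minus ileum, was -0.43 to 0.0503. Hbb-bt of C57BL/6J, ileum minus duodenum/jejunum, was also called with a pseudocount of 0.1 (-0.79, adjusted p 0.0476) and without C57BL/6J mouse 1 (-0.87) or BALB/cJ mouse 1 or 5, whose loss changes the spread alone. The cause of these changes was not tested. Read depth is unknown, so low values such as those of Alas2 rest on an unknown number of reads.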
